A study of Naumovozyma castellii with 24 samples.

Results

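The 3 genes described here are ROX1 of the budding yeast Naumovozyma castellii, the gene next to it on the chromosome, NCAS0A11110, and NCAS0E02010, out of 5648 genes counted. ROX1, with the identifier NCAS0A11120, was found by its symbol in the RefSeq annotation table. NCAS0A11110 was taken for its place directly before ROX1 in that table, with earlier results of these data known. The gene directly after ROX1, NCAS0A11130, was not made a member. The adjusted p-values and rank of NCAS0A11110 below are therefore not independent of its choice. NCAS0E02010 was chosen by its measured counts, which were 0 in every library of a strain lacking ROX2, so its absence there is a description and not a finding. RNA-seq read counts came from 24 libraries, all in the DBP004 background and all grown in YPD medium at 30°C. In the deletion experiment the strains were wild type (WT), rox1-/-, rox2-/- and rox1/rox2-/-, written rox1, rox2 and rox1/rox2 from here on. They were grown in 21% oxygen to an A600 of 1 and then for 2 h more, without or with 0.6 mM CoCl2, a hypoxia mimic. There were 3 libraries each of untreated WT and untreated rox2, and 2 of every other group of this experiment. The oxygen experiment compared WT cells kept 6 h in 21% oxygen (normoxia) or 1% oxygen (hypoxia), with 3 libraries each. Per the series' design text the replicates were biological. How many transformants stood behind each deletion strain, and what replaced the deleted genes, was not stated in the labels.

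In S. cerevisiae, Rox1 is a DNA-binding repressor of the HMG-box type that keeps hypoxic genes low while oxygen is present, with the help of the Tup1-Cyc8 corepressor. There, haem, whose synthesis needs oxygen, activates Hap1, which raises ROX1 transcription, and Rox1 also represses its own gene. Without oxygen ROX1 falls and genes such as ANB1 and HEM13 are released. The annotation table gives neither NCAS0A11110 nor NCAS0E02010 a gene name, and no role is given to them here. No gene in the table carried the symbol ROX2.

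Libraries of the deletion experiment held from 5585196 to 12738873 gene counts and those of the oxygen experiment from 11993105 to 12181501. Reads outside genes made up 14.5% of rox2 replicate 3, 19.9% of rox2 CoCl2 replicate 1 and 10.1% of rox2 CoCl2 replicate 2, against 4.52 to 8.36% in all other libraries of the deletion experiment. Results that changed their call without the first pair of these libraries are given both ways below. Levels are CPM, counts relative to the TMM-scaled library total, as mean ± SD where averaged, and a log2 fold change is given with its standard error (SE). A gene was called where its p from edgeR's quasi-likelihood test, adjusted by Benjamini-Hochberg over all tested genes, was under 0.05. Intervals are 95% intervals of single values, not adjusted for the number of genes. The share of all genes that separated groups of libraries in the same way was counted only where it is given. All 3 genes passed the filter on low counts in both experiments. With library totals in place of TMM scaling, the median log2 fold change of all genes shifted by 0.24 for CoCl2 in WT and by 0.09 for the averaged loss of ROX1 described below. The share of calls that were higher then went from 58.8% to 75% in the first and from 44.9% to 72.2% in the second. The 3 genes kept their direction with library totals, except NCAS0E02010 with CoCl2 in rox1, which was near 0 with both. Levels are shares of all gene counts, so in these bulk cultures more cells with a transcript and more transcript per cell cannot be told apart.

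**Figure D1:**
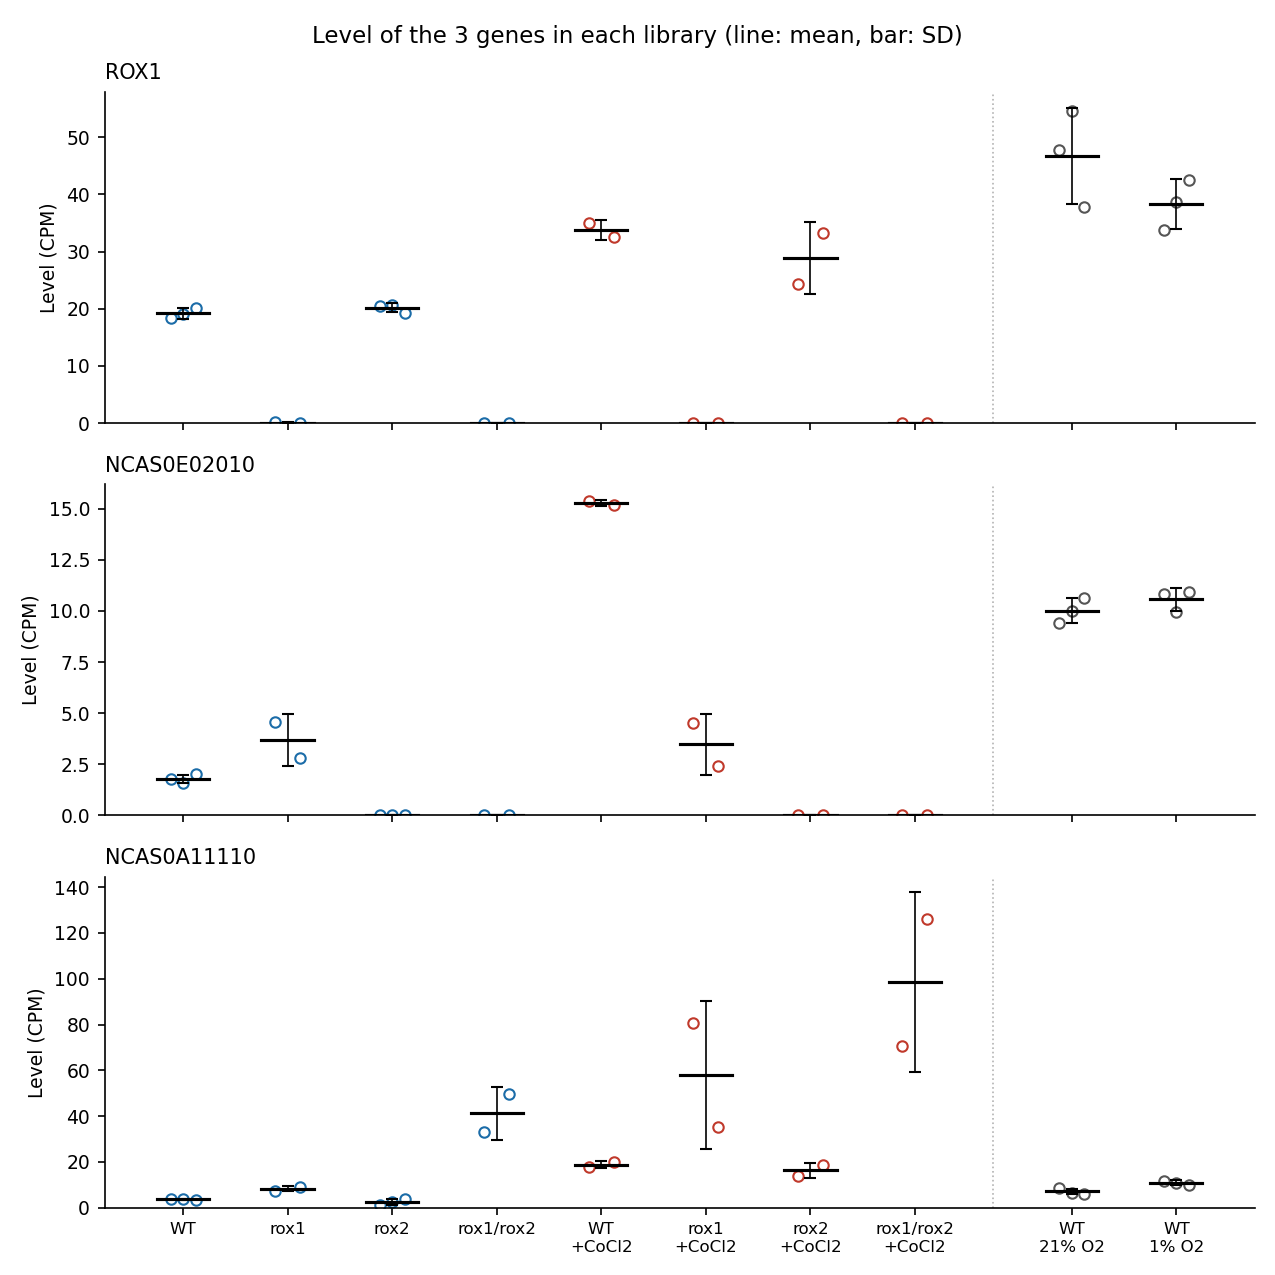
Level of ROX1, NCAS0E02010 and NCAS0A11110 (CPM, linear axes from 0) in each of the 24 libraries, by group. Circles are libraries, lines are group means and bars are SD; the dotted line separates the 2 experiments, whose levels were not compared. ROX1 is near 0 in the 4 groups without the gene, NCAS0E02010 is high in WT with CoCl2 and low in rox1 with CoCl2, and NCAS0A11110 is highest where ROX1 is missing and CoCl2 is present.

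ROX1 itself was carried by WT and rox2. It stood at 18.3, 19.1 and 20.1 CPM in the WT libraries and at 20.6, 20.7 and 19.2 CPM in rox2. With CoCl2 it stood at 35.1 and 32.6 CPM in WT and at 24.4 and 33.3 CPM in rox2. The untreated groups overlapped, both treated groups lay above both untreated ones, and the treated groups overlapped with each other. Its counts matched the genotype labels. In the libraries lacking the gene, ROX1 had 1 count in all over both untreated rox1 libraries and none elsewhere. In rox1 this was a ratio of 363 below WT (interval 64.9 to 14350). Among the groups at 0, set against the strain of the same ROX2 state and treatment, it was at least 93.3-fold lower in rox1/rox2. The bounds with CoCl2 were at least 237-fold for rox1 and at least 176-fold for rox1/rox2, from a floor of 3 counts over the group, and all of them cover counting error only.

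ROX1 rose 1.76-fold with CoCl2 in WT (log2 0.82, SE 0.19, adjusted p = 0.00552), a comparison in which 47% of tested genes were called, so ROX1 was 1 of very many. In rox2 the rise was 1.44-fold (log2 0.52, SE 0.20, adjusted p = 0.0474, with 48.1% of genes called). A fit blocked on the replicate number did not call the rox2 value (adjusted p = 0.0738), nor did fits without any single untreated rox2 library or without rox2 CoCl2 replicate 2, where it was 0.27 log2 (adjusted p up to 0.348). The difference between these responses was −0.30 log2 (interval −0.91 to 0.32, adjusted p = 0.68), in a comparison that called 0.0902% of genes. Loss of ROX2 alone left ROX1 at a log2 fold change of 0.07 (interval −0.32 to 0.47, adjusted p = 0.971), where 0.0722% of genes were called. With CoCl2 the value for rox2 against WT was −0.22 (interval −0.69 to 0.25, adjusted p = 0.584), where 3.57% were called. A fold difference in ROX1 between rox2 and WT beyond the range 0.802 to 1.38 without CoCl2 therefore lay outside the interval.

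In the oxygen experiment ROX1 stood at 47.8, 54.5 and 37.8 CPM in normoxia and at 33.9, 38.6 and 42.6 CPM in hypoxia. The groups overlapped. Its log2 fold change in hypoxia was −0.29 (SE 0.13, interval −0.58 to 0.01, adjusted p = 0.244), in a comparison that called 6.49% of 5559 genes. The fall of ROX1 known from S. cerevisiae without oxygen was thus not detected at 1% oxygen after 6 h, although the interval reaches down to 0.668 of the normoxic level.

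NCAS0E02010 had counts in WT and rox1. Among 29 genes without a count in all 9 libraries lacking ROX2, it was the one with 18 or more counts in each of the other 9 libraries. The bound of 18 is its own lowest count there, so this describes how it was chosen and is not a test. The next of the 29, SPO16, had 5 counts over those 9 libraries together. Just outside, the gene with 18 or more counts in each of the 9 and the fewest counts in the libraries lacking ROX2 was NCAS0A00120, with 137 of them. Levels of NCAS0E02010 were low, at 1.78, 1.60 and 2.00 CPM in WT and 4.58 and 2.79 CPM in rox1. With CoCl2 it stood at 15.4 and 15.2 CPM in WT but at 4.53 and 2.42 CPM in rox1. WT with CoCl2 lay above every other library with counts of the gene, untreated WT lay below all of them, and rox1 without and with CoCl2 lay between and overlapped. Behind these levels stood 18 to 21 counts per library in WT, 27 to 44 in rox1 and 111 and 172 in WT with CoCl2.

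NCAS0E02010 rose 8.49-fold with CoCl2 in WT (log2 3.09, SE 0.34, adjusted p = 0.000124), where 47% of all genes were called. In rox1 its log2 fold change with CoCl2 was −0.07 (interval −0.95 to 0.81, adjusted p = 0.939), where 8.06% of all genes were called. The difference between these responses, −3.16 log2 (SE 0.52, adjusted p = 0.0203), passed the test, in a comparison that called 4.71% of genes. Its size ranged from −3.67 to −2.75 when single libraries were left out. The call was lost in 5 of these 9 fits, without WT replicate 1 or 2, rox1 replicate 1, WT CoCl2 replicate 1 or rox1 CoCl2 replicate 2 (adjusted p up to 0.103), and it held with DESeq2, with both other scalings and with the replicate block. With CoCl2, NCAS0E02010 was 4.41-fold lower in rox1 than in WT (log2 −2.14, SE 0.37, adjusted p = 0.00669; 17.6% of genes called), and without rox1 CoCl2 replicate 2 this was −1.75 (adjusted p = 0.0757). Without CoCl2 its log2 fold change in rox1 against WT was 1.02 (SE 0.37, interval 0.18 to 1.85). This did not pass adjustment (adjusted p = 0.508), where 0.0541% of genes were called.

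In the oxygen experiment NCAS0E02010 stood at 9.42, 10.01 and 10.6 CPM in normoxia and at 10.8, 9.94 and 10.9 CPM in hypoxia. The groups overlapped, and its log2 fold change was 0.08 (interval −0.20 to 0.35, adjusted p = 0.768). A change with hypoxia as large as that with CoCl2 in WT lay far outside this interval.

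**Figure D2:**
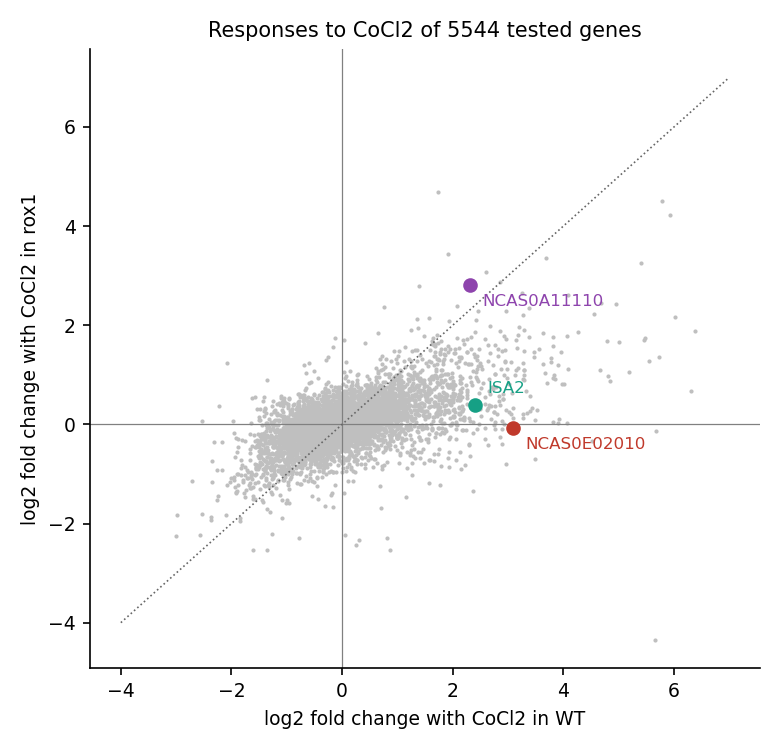
Log2 fold change with CoCl2 in WT (x axis) and in rox1 (y axis) for the 5544 genes tested, which share no library; the dotted line marks equal responses. NCAS0E02010 lies at 3.09 and −0.07, ISA2 at 2.40 and 0.38, and NCAS0A11110 near the line at 2.32 and 2.80.

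NCAS0A11110 was deleted in none of the strains, and its level differed between strains and with CoCl2. Without CoCl2 it stood at 3.98, 3.64 and 3.59 CPM in WT, at 7.51 and 8.99 CPM in rox1 and at 1.21, 2.73 and 3.77 CPM in rox2. In rox1/rox2 it stood at 33.0 and 49.5 CPM. So rox2 overlapped with WT, rox1 lay above both, and rox1/rox2 lay far above all 3. With CoCl2 the levels were 17.6 and 19.8 CPM in WT, 80.9 and 35.1 CPM in rox1, 14.0 and 18.6 CPM in rox2, and 70.7 and 126 CPM in rox1/rox2. The strains again fell into those with ROX1, which overlapped, and those without it, which overlapped with each other and lay above the first. The counts ranged from 13 in rox2 replicate 1 to 880 in rox1/rox2 CoCl2 replicate 2.

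Loss of ROX1 could be measured in 4 backgrounds that share no library. These were rox1 against WT and rox1/rox2 against rox2, each without and with CoCl2, so they were not 4 separate strain pairs. An effect particular to 1 strain would recur with CoCl2. The ratio of rox1 to WT was 2.21 (log2 1.14, SE 0.42), which did not pass (adjusted p = 0.488, with 0.0541% of genes called). NCAS0A11110 was 17.04-fold higher in rox1/rox2 than in rox2 (log2 4.09, SE 0.42, adjusted p = 0.000406, with 2.24% of genes called). With CoCl2 it was 3.10-fold higher in rox1 than in WT (log2 1.63, SE 0.40, adjusted p = 0.0143, with 17.6% called). It was 5.98-fold higher in rox1/rox2 than in rox2 with CoCl2 (log2 2.58, SE 0.41, adjusted p = 0.00209, with 15.8% called). The call in rox1 against WT with CoCl2 was lost without WT CoCl2 replicate 1 (log2 1.55, adjusted p = 0.126) and without rox1 CoCl2 replicate 1 (log2 0.91, adjusted p = 0.127).

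Every library without ROX1 lay above every library with it in each of the 4 backgrounds, which held for 43 of 5544 genes (0.776%). Averaged over the 4 backgrounds, NCAS0A11110 was 5.14-fold higher without ROX1 (log2 2.36, SE 0.21, adjusted p = 1.2e-05). In this comparison 17.8% of genes were called and 7.97% were called higher. The log2 fold change of NCAS0A11110 was the largest of all tested genes, and it was the largest in 23 of the 24 other fits; without WT CoCl2 replicate 2, NCAS0D01610 was larger. Without any single library its averaged value stayed between 2.18 and 2.48. The strand setting of the counting was not given in the sources used here, so reads from either strand over NCAS0A11110 cannot be told apart. Every strain without ROX1 also carried a changed locus directly next to NCAS0A11110. Absence of the Rox1 protein and this change of the locus cannot be told apart in these strains, and neither was tested as a cause.

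**Figure D3:**
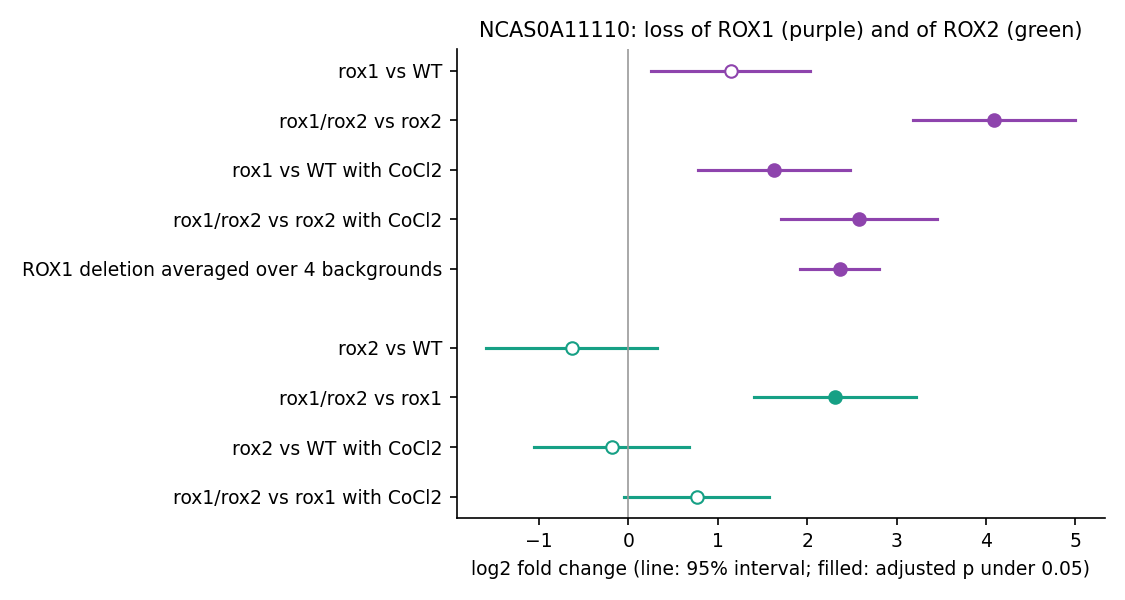
Log2 fold change of NCAS0A11110 on loss of ROX1 (purple) and of ROX2 (green), each in 4 backgrounds, with the average for ROX1. Points are estimates, lines are 95% intervals and filled points have an adjusted p under 0.05; all 5 ROX1 intervals lie above 0, and of the ROX2 values only that of rox1/rox2 against rox1 without CoCl2 was called.

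Loss of ROX2 did not shift NCAS0A11110 detectably while ROX1 was present. Its log2 fold change in rox2 against WT was −0.64 (interval −1.59 to 0.32, adjusted p = 0.843) without CoCl2 and −0.19 (interval −1.05 to 0.68, adjusted p = 0.828) with it. Where ROX1 was missing, the values were higher. The following comparisons were added after the levels had been seen. Without CoCl2, NCAS0A11110 was 4.96-fold higher in rox1/rox2 than in rox1 (log2 2.31, SE 0.42, adjusted p = 0.0353), where 0.325% of genes were called. That call was lost without rox1 replicate 1 (adjusted p = 0.36) and without either rox1/rox2 library (0.124 and 0.255), with log2 values of 1.99 to 2.58. With CoCl2 the log2 fold change was 0.76 (interval −0.05 to 1.57, adjusted p = 0.179; 4.4% called).

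The interaction, the effect of losing ROX1 without ROX2 minus that with ROX2, was 2.95 log2 without CoCl2 (SE 0.61, adjusted p = 0.0543), in a comparison that called 0.397% of genes. It just missed the threshold, and 4 of 15 other fits called it. These were the fits with total counts (3.25, adjusted p = 0.0247) and without rox2 replicate 3 (3.30, adjusted p = 0.0259). The others were those without that library and rox2 CoCl2 replicate 1 together (3.27) and without rox1 replicate 2 (3.12). The remaining fits did not call it, and the values of all fits lay between 2.59 and 3.30. With CoCl2 the interaction was 0.95 (interval −0.24 to 2.14, adjusted p = 0.302; 0.0541% called). Against WT, the strain lacking both genes had 10.97-fold more NCAS0A11110 without CoCl2 (log2 3.46, SE 0.39, adjusted p = 0.00077), which made it 1 of the 0.108% of genes called there. With CoCl2 the value was 5.25-fold (log2 2.39, SE 0.40, adjusted p = 0.00474; 5.01% called), and without rox1/rox2 CoCl2 replicate 2 it was 1.92 log2 (adjusted p = 0.0577).

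The rise of NCAS0A11110 with CoCl2 was called in WT, rox1 and rox2. The rise was 4.98-fold in WT (log2 2.32, SE 0.39, adjusted p = 0.000372, with 47% of genes called). It was 6.98-fold in rox1 (log2 2.80, SE 0.42, adjusted p = 0.00124, with 8.06% called). In rox2 it was 6.80-fold (log2 2.76, SE 0.43, adjusted p = 0.000245, with 48.1% called). In rox1/rox2, where the untreated level was already high, the log2 fold change was 1.25 (SE 0.39, interval 0.43 to 2.08). It was not called (adjusted p = 0.0703, with 5.79% of genes called), while DESeq2 called it (adjusted p = 0.0356). The untreated and treated libraries of these comparisons are also those of the deletion comparisons above. Set against the response in WT, that of rox1 was 0.49 log2 larger (interval −0.75 to 1.72) and that of rox2 0.45 larger (interval −0.84 to 1.74). For rox1/rox2 the value was −1.06 (interval −2.24 to 0.12; 0.397% of genes called). None of these differences passed (adjusted p = 0.612, 0.781 and 0.388), and the intervals are wide.

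In the oxygen experiment NCAS0A11110 stood at 8.52, 6.62 and 6.18 CPM in normoxia and at 11.9, 11.01 and 9.76 CPM in hypoxia. The log2 fold change was 0.61 (SE 0.16, interval 0.26 to 0.97) in the unpaired main fit, which called 6.49% of genes. There it was not called (adjusted p = 0.0516). Blocked on the replicate number, which paired the libraries of this experiment, it was 0.62 and was called (adjusted p = 0.0161). That fit called 741 genes in place of 361. DESeq2 also called NCAS0A11110 (adjusted p = 0.0295).

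The same comparisons were read for the genes on either side. Averaged over the 4 backgrounds, where 7.97% of all genes were called higher, none of the other 5 genes nearest to ROX1 was called higher without it, which were FCY1 (cytosine deaminase in S. cerevisiae), NCAS0A11100, NCAS0A11130, UBA3 (a subunit of the Rub1-activating enzyme) and ISA2 (iron-sulfur cluster assembly). Their values lay between −0.53 and 0.29 log2, against 2.36 for NCAS0A11110. NCAS0A11130, on the other side of ROX1, was called lower (log2 −0.53, SE 0.15, adjusted p = 0.0277), and this was lost without 9 of the 18 libraries one by one (values −0.61 to −0.39), with total counts (adjusted p = 0.059) and with the replicate block (adjusted p = 0.0616). By DESeq2, too, none of the 5 rose and 1 fell. In rox1/rox2 against rox2, the background with the largest fold change of NCAS0A11110, UBA3 stood at 10.7 ± 0.383 CPM against 5.35 ± 0.787 CPM. Its log2 fold change of 0.99 was not called by edgeR (adjusted p = 0.0888), and DESeq2 called 1 of the 5 higher there.

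ISA2, 3 places after ROX1, rose 5.28-fold with CoCl2 in WT (log2 2.40, SE 0.27, adjusted p = 1.6e-05) and 4.13-fold in rox2 (log2 2.05, SE 0.26, adjusted p = 5.6e-05). Its level went from 3.18 ± 0.426 to 16.8 ± 2.22 CPM with CoCl2 in WT, and was 6.38 ± 1.65 CPM in rox1 and 8.39 ± 0.0649 CPM in rox1 with CoCl2. As for NCAS0E02010, the response in rox1 differed from that in WT (−2.02 log2, SE 0.40, adjusted p = 0.0203), and this call was lost without 4 of the 9 libraries (adjusted p up to 0.111). UBA3 and ISA2 lie on the side of ROX1 away from NCAS0A11110. With CoCl2 the 2 genes that rose in WT among these 5, where 47% of all genes were called, were ISA2 and NCAS0A11100, the latter by 0.70 log2 (SE 0.22, adjusted p = 0.0166), a call lost without WT replicate 1 or 2 or WT CoCl2 replicate 1.

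Around NCAS0E02010 the nearest genes in the table were TRS20, SRB6, MRPS5, BIM1, FAA2 and HEM14, to which NCAS0E02020 was added for its identifier, which is not in the table. In rox2 against WT, where 0.0722% of all genes were called, none of these 7 was called by edgeR (2 had an unadjusted p under 0.05) and 1 was higher by DESeq2; the log2 values lay between −0.02 and 0.71. With CoCl2, where 3.57% of all genes were called, 2 of the 7 were called higher in rox2. MRPS5, for a mitochondrial ribosomal protein, lies directly before NCAS0E02010. Without CoCl2 it stood at 79.4 ± 9.72 CPM in rox2 against 48.6 ± 0.566 in WT, and at 83.4 ± 5.87 CPM in rox1/rox2 against 42.5 ± 6.24 in rox1. With CoCl2 it stood at 157 ± 46.8 CPM in rox2 against 88.6 ± 17.3 in WT, and at 118 ± 20.9 CPM in rox1/rox2 against 74.03 ± 2.26 in rox1. In each of these 4 pairs every library lacking ROX2 lay above every library with it, as was the case for 24 of 5544 genes (0.433%). This reading was added after the values were seen, and the pairs with CoCl2 hold the same strains as those without. The pattern was not particular to this locus. The 24 also held COX7, COX9, COX12, COX17, MRP10 and MRP49, on other chromosomes by their identifiers. By edgeR, rox2 against WT with CoCl2 was called (log2 0.82, SE 0.21, adjusted p = 0.0446), and the other 3 were not. Their log2 values were 0.71 in rox2 against WT, and 0.97 and 0.68 in rox1/rox2 against rox1 without and with CoCl2 (adjusted p = 0.17, 0.0636 and 0.0668). In rox1/rox2 against rox1 without CoCl2, DESeq2 called 3 of the 7 higher. In rox2 against WT with CoCl2, SRB6, for a Mediator subunit, had a log2 fold change of 1.09 (SE 0.26, adjusted p = 0.0385). The calls of MRPS5 and SRB6 there were lost without 3 of the 4 libraries one by one, with total counts (MRPS5, adjusted p = 0.156; SRB6, 0.053), and that of MRPS5 also without the libraries with most reads outside genes (adjusted p = 0.144). BIM1, for a microtubule-binding protein and the next gene in the table, fell with CoCl2 in all 4 strains (log2 −1.38 in WT, −1.001 in rox2, −0.84 in rox1/rox2 and −0.52 in rox1), the opposite direction to NCAS0E02010 in WT. The rox1 value lost its call without any single library and with total counts (adjusted p = 0.275), and that of rox1/rox2 without rox1/rox2 replicate 1 (adjusted p = 0.0718).

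**Figure D4:**
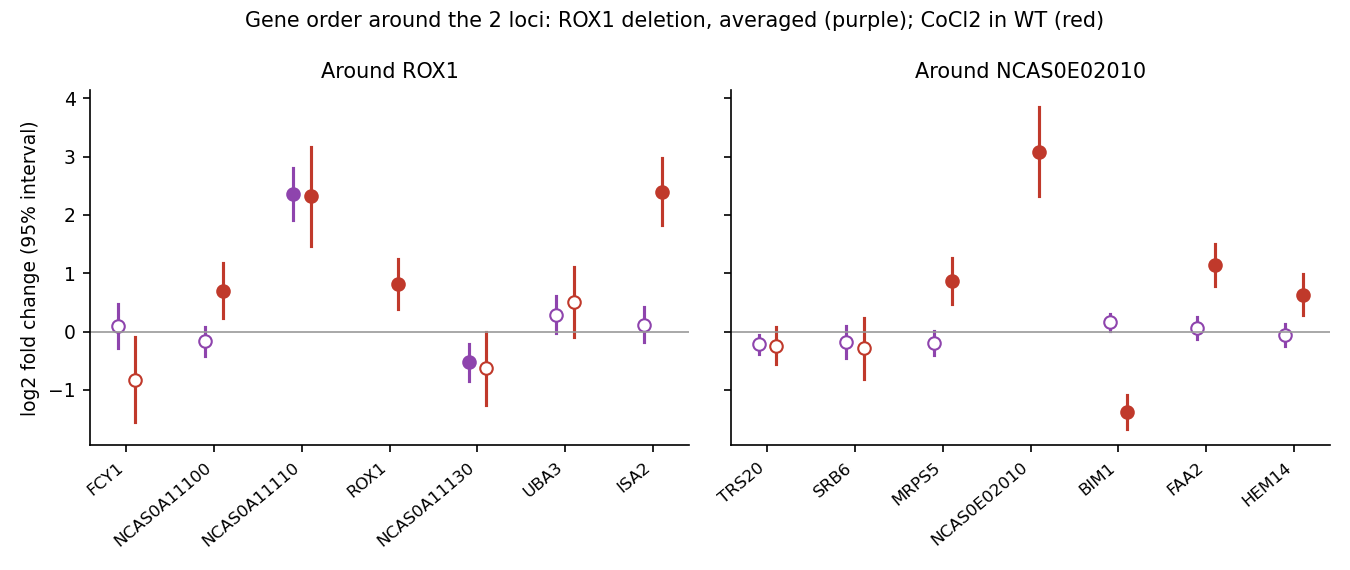
Log2 fold change of the genes around ROX1 (left) and NCAS0E02010 (right), in the order of the RefSeq annotation, on loss of ROX1 averaged over 4 backgrounds (purple) and with CoCl2 in WT (red). NCAS0E02020, which is not in that annotation, is not drawn. Points are estimates, lines are 95% intervals and filled points have an adjusted p under 0.05. NCAS0A11110 is the one gene shown that was called higher without ROX1, and the deleted gene itself has no purple point.

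The circuit around ROX1 was followed in 2 lists taken from S. cerevisiae. Of 15 regulators, 12 were found by symbol, and of 11 known Rox1 targets, 10 were found. SUT1 stood on both lists and is counted in each. With CoCl2 in WT, 6 regulators rose and 3 fell, where 47% of all genes were called (median log2 0.53 against 0.00 for all genes), among them HAP1, the haem-dependent activator of ROX1 in S. cerevisiae, at 1.03 (SE 0.12). Of the targets 6 rose and 4 fell (median 0.77), with the cytochrome c isoform gene CYC7 at 3.48, COX5B, for a cytochrome oxidase subunit, at 2.01, ERG11, for a sterol demethylase, at 1.74 and AAC3, for an ADP/ATP carrier, at −1.36. Averaged over the 4 backgrounds of ROX1 loss, where 17.8% of all genes were called, none of the 10 targets was called by edgeR or by DESeq2. At an unadjusted p under 0.05 none was higher and 2 were lower (median −0.07 against −0.01 for all genes). This average joins backgrounds that differed. In rox1/rox2 against rox2, 1 target was called higher and none lower (2.24% of genes called). In rox1 against WT with CoCl2, 3 were called lower and none higher (17.6% called). None was called in rox1 against WT without CoCl2 or in rox1/rox2 against rox2 with CoCl2. Of the 12 regulators none rose and 3 fell by edgeR, which were HAP4, HAP2 and ECM22 at −2.23, −0.67 and −0.41 log2 (SE 0.31, 0.10 and 0.09), while with total counts 3 regulators rose and DESeq2 had 1 rise and 3 fall. HAP4 was not lower in rox1 than in WT without CoCl2 (67.9 ± 1.54 against 61.3 ± 16.9 CPM).

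With CoCl2 in rox1, where 8.06% of all genes were called, 2 regulators and 3 targets rose and 1 target fell. The difference from WT called 4.71% of all genes. It was called for HAP2 (−1.25 log2, SE 0.27, adjusted p = 0.0281), HAP1 (−0.66, SE 0.18, adjusted p = 0.049) and CYC7 (−2.02, SE 0.53, adjusted p = 0.0457), none of them with total counts, and each was also lost without 5 or more of the 9 libraries one by one. In hypoxia, where 6.49% of all genes were called, 2 regulators rose, SUT1 and MGA2 at 0.46 and 0.23 log2 (the latter lost without 4 of the 6 libraries). Of the targets 5 rose and 2 fell, with ANB1, for the translation factor eIF5A, at 1.00 (SE 0.06, adjusted p = 7.15e-06) and ERG11 at −0.72.

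The genes closest to each member in pattern were named by Pearson's r of log2(CPM + 1) across libraries of the deletion experiment that carry the member. These libraries differ in CoCl2, to which many genes responded, so high values are common and are given as a description. For ROX1 over 10 libraries they were CUL3, LCB5, RIM21, NCAS0H02020 and RIM13 (r from 0.988 to 0.961). For NCAS0E02010 over 9 libraries they were PHO91, VHR1, COA1, CSF1 and NCAS0B00270 (r from 0.986 to 0.980). For NCAS0A11110 over 18 libraries they were NCAS0F02450, GRX5, HSP78, DIA4 and SHE9, with lower values (r from 0.885 to 0.864). With Spearman's rho in place of r, 1, 0 and 3 of these 5 remained among the closest 5.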

How the data were processed

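Raw read counts were used as the authors deposited them, per exon in the deletion experiment (5852 entries, summed to 5648 genes) and per gene in the oxygen experiment. Per the submitters' processing notes, the authors used TopHat2 and HTSeq 0.6.0. Their genome build, annotation and strand setting are not given in the sources used here, nor which of 2 RNA kits served which sample. The experiments differed in provider, read length and layout per the labels and were fitted apart. Counter entries such as reads outside genes stayed out of totals and tests. Gene names and order came from the RefSeq table of ASM23734v1, which held 5589 of the genes; no coordinates or sequences are given.

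Genes were kept by filterByExpr (minimum 10 counts; 5544 and 5559 genes), scaled by TMM and tested with edgeR 4.0.16 (glmQLFit, glmQLFTest, two-sided) in R 4.3.3, with all 18 or 6 libraries and 1 mean per group. Adjusted p-values are from edgeR unless DESeq2 1.42.0 is named. The tests were checked on simulated data, drawn independently for each gene and library. For rox1 against WT, 100 genes were changed by each fold. For rox1 against WT, 65% of simulated 2-fold and 95% of 4-fold changes were called. For CoCl2 in WT these were 62.6% and 97%, and for hypoxia 98% and 100%. The measured rox1 against WT called 3 genes, far fewer than were changed in the simulation, so the adjustment was stricter there. The simulation also held no deviation shared by many genes of a library. The shares called may thus be too high for the measured data, and a 2-fold change in the deletion experiment could be missed. Alternatives were RLE scaling, total counts, no filter, DESeq2, the replicate number as a block and leaving out each library. Same-numbered libraries of the oxygen experiment deviated together (r = 0.175, 0.349 and 0.152), so their numbers were taken to pair them in the blocked fit. The main fit of that experiment was not paired. The named genes were the 3 members, the 3 nearest genes on each side, list members with the smallest adjusted p and the 5 genes of most similar pattern. Members and lists were chosen with earlier results of these data known.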

Additional observations from a re-analysis of the deposited data

Results flagged for a closer look

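The response of NCAS0E02010 to CoCl2 differed between rox1 and WT by −3.16 log2, by a test of the difference itself. The same test gave differences of −2.02 for ISA2, 0.86 for BIM1, −0.66 for HAP1, −1.25 for HAP2 and −2.02 for CYC7. Each of these 6 calls was lost without at least 4 of the 9 libraries of the comparison when they were left out one by one, and their direction stayed in all of these fits.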

How the results depend on the processing

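With total counts, the log2 fold change of NCAS0E02010 with CoCl2 in rox1 turned to 0.13 from −0.07, neither called, and the interaction of ROX1 and ROX2 on NCAS0A11110 passed at 3.25. Total counts also moved the bounds for ROX1 to 75.7-fold in rox1/rox2, 257-fold in rox1 with CoCl2 and 149-fold in rox1/rox2 with CoCl2. DESeq2 called NCAS0A11110 with CoCl2 in rox1/rox2 (1.23) and in hypoxia (0.62). The replicate block called NCAS0A11110 in hypoxia (0.62) and lost ROX1 with CoCl2 in rox2 (0.52); it changed no other call of the 3 genes. Without rox2 replicate 3 and rox2 CoCl2 replicate 1 together, chosen after seeing the data, the interaction on NCAS0A11110 passed at 3.27. RLE scaling and no filter changed no call of the 3 genes. The cause of these changes was not tested. Leaving out 1 library gave ROX1 with CoCl2 in rox2 values of 0.27 to 0.72. For NCAS0E02010 it gave −0.58 to 0.32 with CoCl2 in rox1, −2.65 to −1.75 in rox1 against WT with CoCl2 and −3.67 to −2.75 for the difference. For NCAS0A11110 it gave 0.91 to 2.11 in rox1 and 1.92 to 2.75 in rox1/rox2 against WT with CoCl2, 1.99 to 2.58 in rox1/rox2 against rox1, 2.59 to 3.30 for the interaction and −0.24 to 0.97 for the difference in CoCl2 response of rox1, which turned negative without rox1 CoCl2 replicate 1. In the deletion experiment, pairing by replicate number was stated by no label and not shown where it could be checked over 3 pairs: in rox2 and WT, 1 of 6 libraries correlated best with its own number. Between strains with CoCl2, with 2 pairs each, same-numbered libraries correlated at 0.26 to 0.763, so they deviated together there.

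The share of genes called, used here as background, depended on the fit. DESeq2 called 735 genes in place of 447 with CoCl2 in rox1, 686 in place of 321 with CoCl2 in rox1/rox2, 45, 65 and 167 in place of 3, 4 and 6 for rox1, rox2 and rox1/rox2 against WT, 373 in place of 124 for rox1/rox2 against rox2 and 359 in place of 18 for rox1/rox2 against rox1. With CoCl2 it called 590, 477 and 947 in place of 198, 278 and 244 for rox2 and rox1/rox2 against WT and rox1/rox2 against rox1. For differences in CoCl2 response it called 645, 146 and 227 in place of 261, 5 and 22 in rox1, rox2 and rox1/rox2, and for the interactions 126 and 444 in place of 22 and 3. The block called 741 in place of 361 in hypoxia, 435 for the difference in rox1, 0 for that in rox2, 8 for rox2 against WT, and 31 and 753 for rox1/rox2 against rox1 without and with CoCl2. Total counts gave 391 for rox1/rox2 against rox2, 103 and 170 for rox2 and rox1/rox2 against WT with CoCl2, 85 and 0 for the differences in rox1 and rox2, 553 for rox1/rox2 against rox1 with CoCl2 and 0 for the interaction with CoCl2. Without the libraries with most reads outside genes, 19 and 407 were called for rox2 against WT without and with CoCl2, 213 for the difference in rox2, and 71 and 1012 for the interactions. Leaving out 1 library gave from 1470 genes with CoCl2 in WT (without WT CoCl2 replicate 1) to 2721, from 126 (without rox1 replicate 1) to 930 (without rox1 replicate 2) in rox1 and from 19 (without rox1 CoCl2 replicate 2) to 504 (without rox1 replicate 2) for their difference.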
